A study of Arabidopsis thaliana with 6 samples.

Results

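Plastids make part of their own proteins on ribosomes of the bacterial type. The RNA of these ribosomes and some of their proteins come from plastid DNA, whereas most of their proteins are encoded in the nucleus, made in the cytosol and imported. Green leaves depend on these ribosomes for the core proteins of both photosystems and for the large subunit of Rubisco. Here, 36 nuclear genes for plastid ribosomal proteins were followed, chosen by gene ID from a given list. They are 24 genes for proteins of the large (50S) and 12 for proteins of the small (30S) subunit. All 36 were among the 33331 genes of the table, and all 36 were among the 3774 genes that were abundant enough to be tested.

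The data are RNA immunoprecipitation sequencing (RIP-seq) of the glycine-rich protein AtGRP7 from Arabidopsis thaliana, which binds RNA and whose own level follows the circadian clock. All plants carried AtGRP7::AtGRP7-GFP, the protein fused to green fluorescent protein under its own promoter, in the loss-of-function mutant grp7-1, and no plants without the fusion enter the comparison. They grew for 16 days with 12 h of light and 12 h of darkness a day and were moved to continuous light (LL). Aerial tissue was fixed with 1% formaldehyde for 15 min after 24 h of it (LL24, the subjective morning) or after 36 h (LL36, the subjective evening), with 3 libraries per time point. RNA without tagged protein was not used here, so a difference in signal can stand for the amount of a transcript, for its binding, or for both, and in bulk tissue fewer cells of a type and less RNA per cell cannot be told apart.

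Levels are given as scaled TPM. TPM is transcripts per 1000000 transcripts, corrected for transcript length, rescaled here to sum to 1000000 over the listed genes and divided by a factor per library that lines up the bulk of the tested genes. The unit keeps no read depth, so precision rests on the spread of 3 libraries. Listed genes made up 9.59% to 16.6% of the TPM per library, with LL36 replicate 3 the lowest, and the 10 highest genes took 78.2% to 85.1% of that. The label checks moved with the time of day: AtGRP7 rose from 22.9 ± 3.07 scaled TPM at LL24 to 1779 ± 183.1 at LL36, and LHY, a morning gene of the clock, went down from 10.5 ± 2.38 to 0.159 ± 0.0348 (mean ± SD over 3 libraries here and below). All 4 leaf genes were abundant. CAB1, an antenna protein, stood at 13958 ± 2177 scaled TPM at LL24 and 14406 ± 293.4 at LL36 (log2 difference 0.06, adjusted p = 0.79), while RBCS1A, the Rubisco small subunit, fell from 12694 ± 1923 to 9053 ± 683 (-0.48, adjusted p = 0.040), the carbonic anhydrase gene CA1 from 436 ± 76.2 to 178 ± 5.85 (-1.27, adjusted p = 4.2e-04), and the Rubisco activase gene RCA from 984 ± 147.0 to 304 ± 13.8 (-1.68, adjusted p = 1.1e-04). What part this fall of 3 leaf genes has in the members' values was not tested. Of 5 root genes EXPA7, COBL9 and NRT2.1 were listed at 0 in every library while CASP1 and IRT1 did not pass 0.125.

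The 36 transcripts differed far more from each other than between the time points. Their mean levels over the 6 libraries spanned a 27.9-fold range, from 16.0 scaled TPM for PSRP2 to 445 for RPS20. Among the tested genes ranked by level, the lowest member stood at percentile 59.4 and the median member at percentile 90.2. The order of the members was nearly the same at both time points (Spearman rho = 0.98 across the 36 genes, which share libraries and are not independent), and no member moved by more than 5 places. Short transcripts tended to be the abundant ones (rho of transcript length and level = -0.59 across the 36 genes, lengths of 610 to 1588 nt), although TPM is corrected for length. Within a time point the libraries were close: the median coefficient of variation of a member was 7.18% at LL24 and 6.94% at LL36, against 11.8% and 11.1% over all tested genes. The members were also more abundant, with a median level of 87.5 scaled TPM against 12.2 over all tested genes. Spread was not compared at matched level.

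**Figure D1:**
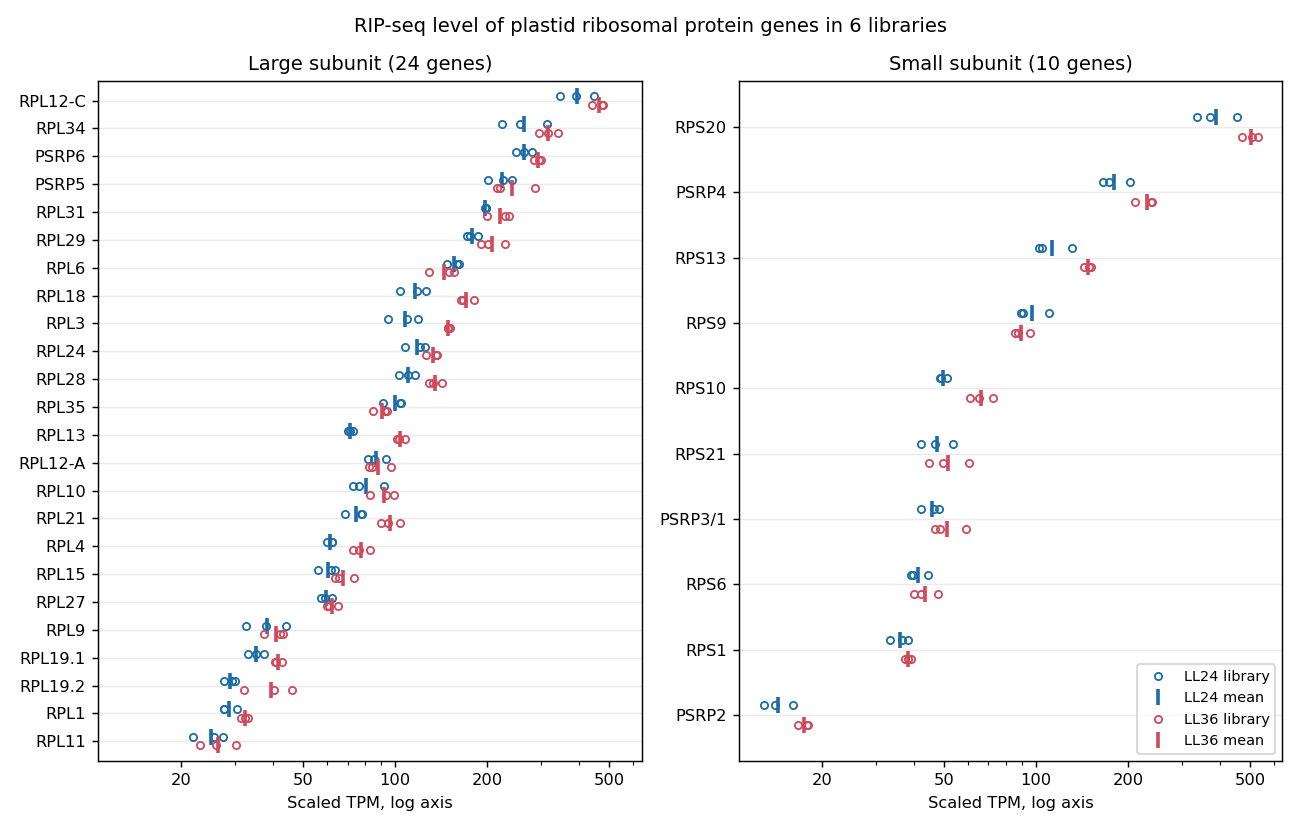
Level of 34 of the 36 genes in scaled TPM on a log axis, large subunit on the left and small subunit on the right, ordered by mean. Open circles are the 3 libraries of LL24 (blue) and of LL36 (red) and bars are their means; levels run from 16.0 for PSRP2 to 445 for RPS20, while the shifts between time points are small beside this range.

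RPS20, a small subunit protein that binds 16S rRNA early in assembly in bacteria, was the most abundant member. Its levels were 454, 371 and 336 scaled TPM in LL24 replicates 1 to 3 and 471, 509.5 and 530.4 in LL36 replicates 1 to 3. The time points did not overlap, but the adjusted p of 0.054 missed the threshold (log2 difference 0.39, SE 0.13). RPL12-C, a protein of the flexible stalk that recruits elongation factors, had 390.1, 446.5 and 346 scaled TPM at LL24 and 440, 477 and 474 at LL36, which overlapped. RPL34, a small protein of the large subunit, gave 224, 313 and 257 at LL24 against 295, 315 and 341 scaled TPM at LL36, with 1 LL24 library inside the LL36 range. These 3 and PSRP6 formed the top of the order at both time points, and RPS20 and RPL12-C changed places between them.

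At the other end stood PSRP2, RPL11, RPL1 and RPL19.2. RPL11 sits at the base of the stalk, and its levels of 21.9, 25.7 and 27.5 scaled TPM at LL24 and 26.1, 30.4 and 23.0 at LL36 overlapped (log2 difference 0.08, SE 0.13, adjusted p = 0.69). RPL1 forms the other, mobile stalk beside the site where spent tRNA leaves. It had 30.5, 27.7 and 27.7 scaled TPM at LL24 and 32.4, 31.3 and 33.1 at LL36, without overlap, but the difference was not called (log2 difference 0.17, SE 0.08, adjusted p = 0.17).

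Comparing LL36 with LL24 asked whether the signal of these transcripts changed with the time of day. Of the 36 members, 10 rose at LL36 (adjusted p under 0.05, limma with Benjamini-Hochberg adjustment over all 3774 tested genes), none fell, and 26 were not called. That is 27.8% of the members called, all higher, where 36.2% of all tested genes were called, 16.6% higher and 19.6% lower. The share of members called in either direction was thus below that of all genes, and the calls lay on one side. With the TPM as deposited no member was called. At an unadjusted p under 0.05 the members counted 14 higher and 0 lower, 38.9% against 46.7% of all tested genes in either direction. The difference was positive for 33 of the 36 (for 9 with the TPM as deposited), with a median log2 difference of 0.20 against 0.03 for all tested genes. LL36 and LL24 libraries did not overlap for 19 members, all higher at LL36. That is 52.8%, close to the 50.7% of all tested genes in either direction. Of the tested genes without overlap, however, 933 were higher and 979 lower.

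On the reported scale every shift was small. No member changed by 1.5-fold, whereas 26.7% of all tested genes did, and the 95% interval of all 36 differences stayed under 2-fold in either direction. This contrast was not made at matched level, and the members were more abundant (median 87.5 against 12.2 scaled TPM). The largest difference was 0.56 (RPL18) and the lowest -0.13 (RPL35) on the log2 scale, taken as log2(scaled TPM + 1). The size of the difference showed little relation to level (rho = 0.15 across the 36 genes) or to transcript length (rho = 0.15). With the TPM as deposited the differences were less precise, as for RPL35 (log2 difference -0.45, SE 0.34).

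**Figure D2:**
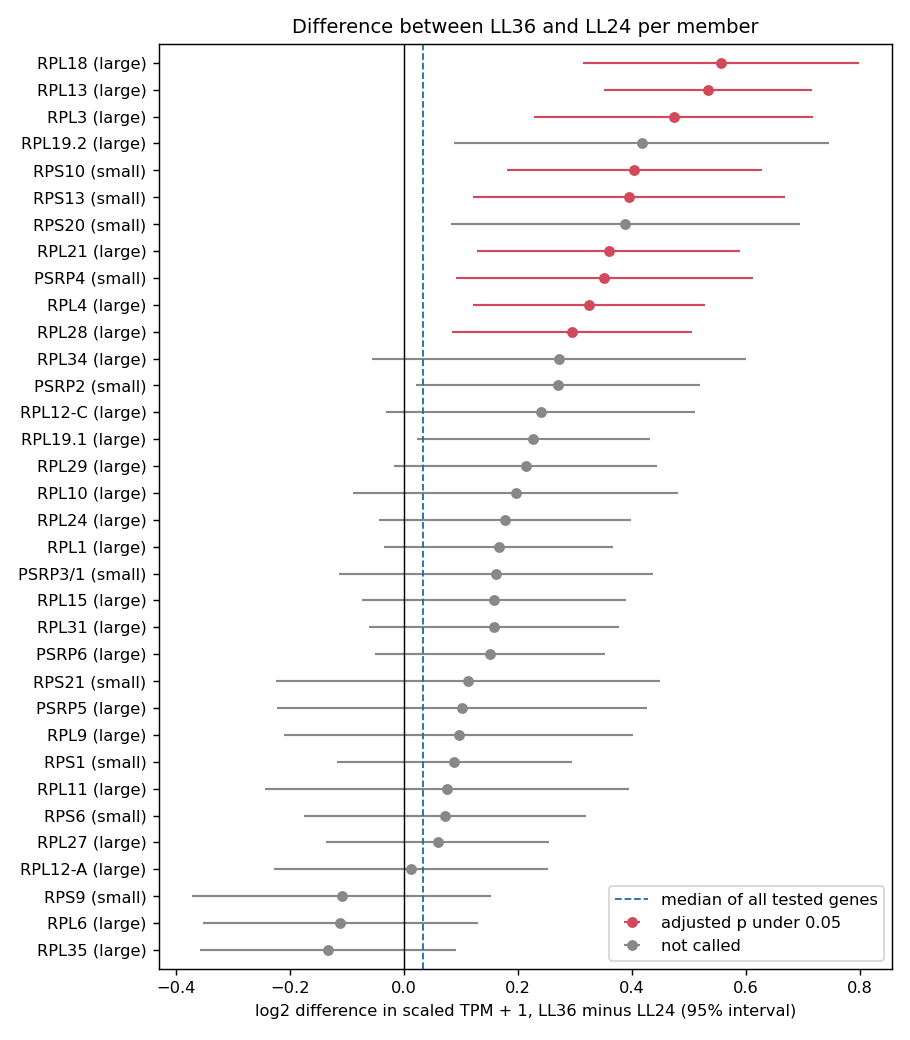
Log2 difference between LL36 and LL24 for 34 of the 36 members with its 95% interval from limma (3 libraries each), members ordered by size, subunit in brackets. The 9 red points passed an adjusted p of 0.05 and all lie to the right of 0 (none passed with the TPM as deposited), grey points did not pass, and the dashed line is the median of all tested genes, 0.03.

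In the large subunit 6 of 24 genes rose (25%), none fell, and the median log2 difference was 0.19. Over all tested genes 36.2% were called in either direction and 16.6% were called higher. RPL18, which binds 5S rRNA in bacteria, rose most, from 127, 118 and 104 scaled TPM at LL24 to 181, 167 and 164 at LL36 (1.47-fold, log2 difference 0.56, 95% interval 0.31 to 0.80, adjusted p = 0.0058). Its gene AT1G48350 lies on the plus strand of chromosome 1 at 17867102 to 17868432 (TAIR10.1) and has 3 exons. RPL13, an early assembly protein of the large subunit in bacteria (AT1G78630, plus strand of chromosome 1, 29575806 to 29577880, 4 exons), had the smallest SE of the members over both time points. Its libraries gave 71.4, 72.9 and 70.4 scaled TPM at LL24 and 102.8, 101.4 and 108.0 at LL36 (log2 difference 0.53, SE 0.08, adjusted p = 0.0020). Both genes came close to a 1.5-fold difference, with a clear gap between the lowest LL36 and the highest LL24 library.

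RPL3 (AT2G43030, plus strand of chromosome 2, 17894796 to 17895882, 1 exon), whose bacterial relative starts assembly of the large subunit, rose from 109.4, 119.2 and 94.8 to 151, 149 and 148 scaled TPM (log2 difference 0.47, SE 0.10, adjusted p = 0.012). The 3 LL36 libraries of this gene had a coefficient of variation of 0.919%, against 11.4% at LL24. RPL4, which lines the exit tunnel, rose from 61.5 ± 1.39 to 77.4 ± 5.22 scaled TPM, RPL21 from 74.7 ± 5.26 to 96.1 ± 7.02, and RPL28 from 110 ± 6.68 to 135 ± 6.82 (n = 3 each). Their log2 differences were 0.33, 0.36 and 0.29 with adjusted p of 0.025, 0.028 and 0.039. None of these 3 overlapped between the time points.

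The only negative differences in the large subunit were those of RPL35 and RPL6, and neither passed the test. RPL35, a small protein of this subunit, had 91.1, 104.4 and 103.6 scaled TPM at LL24 and 84.8, 92.9 and 94.5 at LL36 (log2 difference -0.13, SE 0.09, adjusted p = 0.31). RPL6, near the site where translation factors bind, had 162, 148 and 159 scaled TPM at LL24 and 156, 150 and 129 at LL36 (log2 difference -0.11, SE 0.10, adjusted p = 0.43). In both, libraries of the time points overlapped. Without LL36 replicate 3 the difference of RPL6 was -0.040, and without LL36 replicate 1 that of RPL35 was -0.086.

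In the small subunit 4 of 12 genes rose (33.3%), none fell, and the median log2 difference was 0.25. Over all tested genes 36.2% were called in either direction and 16.6% were called higher. RPS10 and RPS13, both in the head of the subunit, rose from 49.7 ± 1.39 to 66.2 ± 6.0 and from 113 ± 16.3 to 148 ± 3.72 scaled TPM (n = 3 each; log2 differences 0.40 and 0.39, adjusted p = 0.016 and 0.036). For both genes every LL36 library stood above every LL24 library. The lowest member of this subunit by difference was RPS9, whose tail reaches the peptidyl site in bacteria. Its levels of 90.9, 110.6 and 89.5 scaled TPM at LL24 and 85.7, 95.5 and 87.4 at LL36 overlapped (log2 difference -0.11, SE 0.11, adjusted p = 0.47), and without LL24 replicate 2 the difference was -0.017.

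The plastid-specific ribosomal proteins (PSRP) have no counterpart in most bacterial ribosomes. All 5 had a positive difference, which was negative for all 5 with the TPM as deposited. Of the 5, 1 was called (20%, against 36.2% of all tested genes in either direction). PSRP4, a small basic protein of the small subunit, rose from 165, 202 and 173 scaled TPM at LL24 to 211, 240 and 238 at LL36 (log2 difference 0.35, SE 0.11, adjusted p = 0.045). PSRP2, an RNA-binding protein of the small subunit and the least abundant member, had 13.0, 14.1 and 16.1 scaled TPM at LL24 and 17.8, 18.0 and 16.8 at LL36, without overlap and not called (log2 difference 0.27, SE 0.10, adjusted p = 0.086).

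PSRP6, of the large subunit, had 249, 264 and 280 scaled TPM at LL24 and 284, 295 and 300.0 at LL36, again apart but by little (log2 difference 0.15, SE 0.09, adjusted p = 0.21). The other two overlapped. PSRP5, also of the large subunit, had 226, 242 and 202 at LL24 and 216, 220 and 287 scaled TPM at LL36, so that LL36 replicate 3 alone lay above LL24 (log2 difference 0.10, SE 0.14, adjusted p = 0.59). PSRP3/1, of the small subunit, had 42.2, 48.4 and 46.6 scaled TPM at LL24 and 48.6, 59.0 and 46.7 at LL36 (log2 difference 0.16, SE 0.12, adjusted p = 0.32).

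A pair of proteins came from 2 genes each within the list. The RPL12 copies differed in level and the RPL19 copies hardly did. RPL12-A and RPL12-C lie close together on chromosome 3 and encode precursors that are identical at 170 of 187 aligned residues (90.9%). RPL12-A had 85.5, 93.3 and 81.7 scaled TPM at LL24 and 82.3, 96.9 and 84.0 at LL36, a log2 difference of 0.01 (SE 0.10, adjusted p = 0.93), whereas RPL12-C stood at 394 ± 50.3 and 463 ± 20.5 (n = 3 each; log2 difference 0.24, SE 0.11, adjusted p = 0.15). The ratio of C to A within a library, which no scaling changes, was 4.56, 4.79 and 4.24 at LL24 and 5.35, 4.92 and 5.64 at LL36. It was higher in all 3 LL36 libraries, a difference that an exact permutation test of 3 against 3 could not carry below p = 0.1. Of the 100-nt stretches of the transcripts, 12.7% in A and 18.4% in C occur in the other copy, so part of the signal could be split between them. A further copy between them, RPL12-B, was listed at 0 in all 6 libraries.

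The RPL19 copies, AT5G47190 (RPL19.1) and AT4G17560 (RPL19.2), encode a protein at the contact between the subunits and share 77.2% of aligned residues and no 100-nt stretch. RPL19.1 had 35.2, 37.5 and 33.02 scaled TPM at LL24 and 40.6, 42.7 and 40.8 at LL36 (log2 difference 0.23, SE 0.09, adjusted p = 0.081). RPL19.2 had 29.4, 27.7 and 29.9 at LL24 and 40.2, 46.1 and 32.0 scaled TPM at LL36, apart but widely spread at LL36 (log2 difference 0.42, SE 0.14, adjusted p = 0.054). Neither copy was called. The ratio of RPL19.1 to RPL19.2 was 1.22 ± 0.126 at LL24 and 1.07 ± 0.181 at LL36 (n = 3 each) and overlapped, so the copies contributed about equally at both time points.

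A further 10 members were RPL9, RPL10, RPL15, RPL24, RPL27, RPL29 and RPL31 of the large and RPS1, RPS6 and RPS21 of the small subunit. Their mean levels ran from 37.1 scaled TPM for RPS1 to 209 for RPL31. These 10 exclude every called member and every member with a negative difference, so their direction and lack of calls follow from that choice. Their differences ran from 0.06 to 0.21 on the log2 scale, with adjusted p from 0.13 to 0.62. The differences were negative for all 10 with the TPM as deposited, and for RPL9, RPS6 and RPS21 without 1 of the libraries. Only RPL24, RPL29 and RPL31 did not overlap between the time points, where 50.7% of all tested genes did not, in either direction.

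Upstream DNA of the members was searched on both strands for 5 motifs known from clock-controlled genes and from genes of the translation machinery, from 250 bases before to 50 bases after the annotated start, in the TAIR10.1 sequence of RefSeq. Site II (TGGGCC), bound by TCP transcription factors, was in 12 of 36 members (33.3%) and in 15.5% of the 27444 promoters searched. The telo box (AAACCCTA) was in 5 members (13.9% against 6.22%), the evening element (AAAATATCT) in 2 (5.56% against 2.82%), the CCA1 binding site (AAAAATCT) in 3 (8.33% against 7.88%) and the G-box (CACGTG) in 4 (11.1% against 7.68%). No motif contains another, and site II matches can overlap each other on the 2 strands. Site II was in RPL6 and RPS9, with negative differences, as well as in RPS10 and RPS13, which rose. A match describes the letters only. The 150 bases before the start are shown for RPS13, which rose and holds 2 kinds of motif, and for both RPL19 copies. The copies keep site II near the start although the sequences around it differ. RPL34, the other member with the evening element, was not called (limma adjusted p = 0.17). PSRP4, which also rose, holds a G-box and a telo box. The searched window of RPL19.2 also holds a G-box, which lies at least partly outside the 150 bases shown. Matches are in capitals, read on either strand, and each sequence runs toward the start of its gene.
RPS13, minus strand, chr5:4618982-4619131, evening element and site II: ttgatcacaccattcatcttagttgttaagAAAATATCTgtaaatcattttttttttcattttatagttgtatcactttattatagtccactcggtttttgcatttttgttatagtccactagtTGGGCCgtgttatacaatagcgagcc
RPL19.1, minus strand, chr5:19166136-19166285, site II: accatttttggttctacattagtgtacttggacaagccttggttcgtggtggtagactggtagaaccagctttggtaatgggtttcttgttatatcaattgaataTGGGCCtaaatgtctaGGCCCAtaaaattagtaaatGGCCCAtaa
RPL19.2, plus strand, chr4:9780074-9780223, site II: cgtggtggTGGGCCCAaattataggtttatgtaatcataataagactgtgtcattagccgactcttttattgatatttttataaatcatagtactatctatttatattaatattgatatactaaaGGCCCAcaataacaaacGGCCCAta

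Some members overlap other genes. No source used here states whether the quantification used strand, so reads of a member and of a gene across from it may not have been told apart. Of the 100-nt stretches of RPL28, 63.1% occur in overlapping genes, as do 51.6% of RPL10 and 20.2% of RPS13. The same holds for 14.8% of RPL18 and 13.5% of PSRP5, so the values of these members are uncertain. The overlapping genes that share stretches and were listed were low: AT2G33460, across RPL28, was at 0 ± 0 and 0.0739 ± 0.0789 scaled TPM, and AT5G14310, across RPS13, at 1.24 ± 0.374 and 1.06 ± 0.338 (LL24, then LL36). AT1G68585, which shares 6.57% of the stretches of PSRP3/1, was at 4.24 ± 0.553 and 3.44 ± 0.294. Of the 2 genes that overlap RPL10, AT5G13520 was at 0.756 ± 0.0839 and 0.764 ± 0.208, and AT5G02095 was not listed. The genes that overlap RPL18 and PSRP5 and share these stretches, AT1G48355 and AT3G08785, were not listed either. The levels of these unlisted genes are unknown. In all, 24 members shared no stretch with another gene, among them 7 of the 10 that rose, and their median log2 difference was 0.20.

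As a group, the 36 genes took 0.500%, 0.387% and 0.402% of the listed TPM in LL24 replicates 1 to 3 and 0.517%, 0.509% and 0.400% in LL36 replicates 1 to 3. These shares overlapped. Without the 10 highest genes in the denominator the shares were 2.30%, 2.32% and 2.18% at LL24 and 2.71%, 2.87% and 2.69% at LL36 and stood apart. Within the group, small subunit genes made up 30.4% ± 0.456 of the members' TPM at LL24 and 31.6% ± 0.832 at LL36 (n = 3 each), with LL24 replicate 1 above LL36 replicate 1, so the balance of the subunits was nearly constant.

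**Figure D3:**
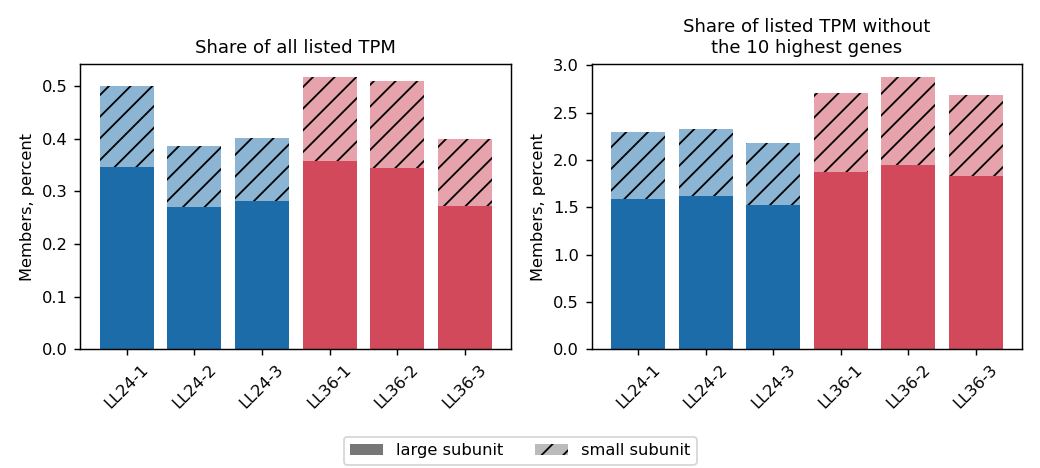
Share of the 36 genes in each library in percent of all listed TPM (left) and of listed TPM without the 10 highest genes (right), as stacked bars from 0 for large subunit (solid) and small subunit genes (hatched), LL24 in blue and LL36 in red. On the left the time points overlap (0.387% to 0.500% and 0.400% to 0.517%), on the right every LL36 bar stands above every LL24 bar.

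The calls depended on how the libraries were brought to one scale. As deposited, the TPM gave a members' median of -0.14, while the median of all tested genes was -0.18. On the full-sum scale without a factor no member was called either, with a median of 0.11 against -0.05 for all genes. The members' median thus lay above that of all genes by 0.05 and 0.16, and by 0.17 with the factor. Leaving out single libraries gave 4 to 7 calls, the fewest without LL36 replicate 1. Calls over all tested genes also fell in the same fits, from 1366 to between 1004 and 1200 (1015 without LL36 replicate 1). RPL18, RPL13 and RPL3 passed in all 6 of these fits, RPS10 in 4, RPL21 in 3, RPL4, RPS13 and PSRP4 in 1 each, and RPL28 in none. Over all 17 alternatives, PSRP4 kept its call in 5 and RPL28 in 4. Median-of-ratios scaling was among the settings in which PSRP4 was not called.

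**Figure D4:**
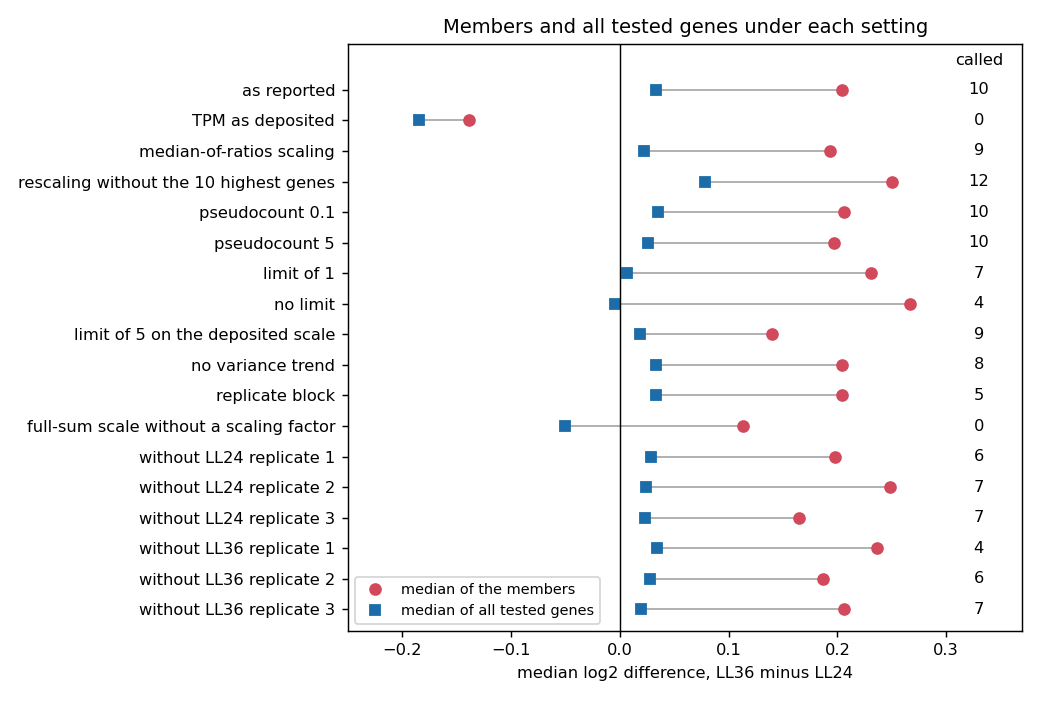
Median log2 difference of the members (red circles) and of all tested genes (blue squares) under each setting tried, with the number of members called higher at the right. The circle lies to the right of the square in every setting, but its distance from 0 and the number called (0 to 12) change with the scaling.

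The factors that work with these ribosomes were given by a list of 26 genes for plastid translation and ribosome assembly, of which 11 were abundant enough to be tested. Of these, 2 rose, 3 fell and 6 were not called, with log2 differences from -1.03 to 1.60. That is 45.5% called and 18.2% called higher, against 36.2% and 16.6% of all tested genes, whose differences ran from -4.34 to 6.26. PSRP1, a factor that puts idle ribosomes to rest, rose most, from 6.58, 5.85 and 7.59 scaled TPM at LL24 to 22.4, 22.2 and 21.8 at LL36 (3.31-fold, log2 difference 1.60, SE 0.11, adjusted p = 6.8e-05). RH3, an RNA helicase of ribosome assembly, rose from 25.9, 20.7 and 23.4 to 33.9, 33.8 and 29.1 scaled TPM (log2 difference 0.45, SE 0.11, adjusted p = 0.021). In both, all LL36 libraries were above all LL24 libraries.

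Those that fell were SCO1 and the CSP41 pair. SCO1, the plastid elongation factor G, fell from 28.7 ± 3.57 to 15.9 ± 0.444 scaled TPM (n = 3 each; log2 difference -0.81, adjusted p = 0.0014). CSP41b and CSP41a, RNA-binding proteins found with plastid ribosomes, fell from 68.3 ± 8.82 to 32.98 ± 3.56 and from 36.3 ± 4.49 to 26.3 ± 0.567 scaled TPM (log2 differences -1.03 and -0.44, adjusted p = 0.0012 and 0.019). For elongation factor Tu, the most abundant of the list, the levels of 77.3 ± 6.25 and 66.4 ± 5.62 scaled TPM overlapped and were not called (adjusted p = 0.15). None of the 3 that fell overlapped between the time points. PSRP1, SCO1 and CSP41b passed under every alternative in which they were tested, whereas RH3 passed in 10 and CSP41a in 8 of 16. RPL5 and RPL17, ribosomal proteins outside the list of 36, were not called either, with log2 differences of 0.27 (SE 0.13) and 0.10 (SE 0.11).

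**Figure D5:**
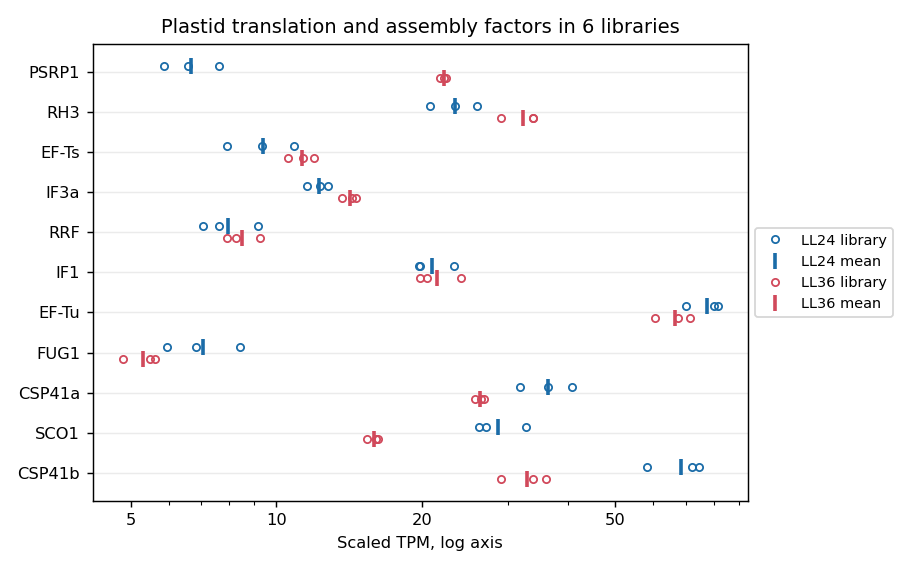
Level of the 11 tested plastid translation and assembly factors in scaled TPM on a log axis, ordered by log2 difference; circles are the 3 libraries per time point and bars their means. PSRP1 lies 3.31-fold higher at LL36, while SCO1, CSP41a and CSP41b lie lower in all LL36 libraries.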

How the data were processed

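RIP-seq libraries of aerial tissue were grouped by the time point in the sample titles, 3 at LL24 and 3 at LL36, which the study's methods call biological replicates. Per the labels, AtGRP7-GFP was recovered with GFP-Trap beads and washed in buffer with 500 mM NaCl and 2 M urea, and single-end reads of 100 nt were sequenced. Per the submitters' processing notes, STAR 2.5.2a, Salmon 0.8.2 and edgeR were used by the authors, and they deposited TPM per gene without rRNA and organelle genes. For strand use, nothing was stated in the sources used here. A further 6 columns matched no sample and were not used.

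The listed TPM were first brought to a sum of 1000000 per library (the full-sum scale), and genes with a mean of 5 or more were tested. Each library was divided by a trimmed mean of log ratios (30% of ratios and 5% of abundances trimmed at each end), with factors from 0.808 to 1.22. In R 4.3.3, limma 3.58.1 was run on log2(scaled TPM + 1) (eBayes with trend, two-sided, Benjamini-Hochberg over all tested genes, call at 0.05), after being tested on simulated data. The log scale understates changes of low genes. TPM keeps no depth, so no counting interval was computed.

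Members and lists were chosen with earlier results of these data known, and no test was made over the members as a set. Values in every library are given for the 4 highest and 4 lowest members, the 5 with the largest increase, those with a negative difference (3, where up to 5 were to be named), the copies of RPL12 and RPL19, and the plastid-specific members. Other called members are given by mean and SD. Of the 36 members, 2 are counted in all totals but not reported here one by one. Of the other lists, called genes are named. Alternatives covered scaling, pseudocount, limit, variance trend, replicate block and leaving out each library. Gene models, protein identity and upstream sequence came from TAIR10.1 of RefSeq.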

Additional observations from a re-analysis of the deposited data

How the results depend on the processing

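With the TPM as deposited, 0 members were called and their median log2 difference turned to -0.14. The called members RPL4, RPL28 and PSRP4 then stood at -0.020, -0.053 and -0.0021, and of the uncalled ones RPL12-A at -0.31, RPL12-C at -0.11, RPL11 at -0.20, RPL1 at -0.14, RPL19.1 at -0.095, RPL34 at -0.081, PSRP2 at -0.035, PSRP3/1 at -0.15, PSRP5 at -0.25 and PSRP6 at -0.20. The same setting turned IF1 to -0.23, IF3a to -0.079, EF-Ts to -0.038, RRF to -0.13, RPL5 to -0.067 and RPL17 to -0.25, and called 1 translation factor as higher. On the full-sum scale without a scaling factor, an alternative chosen after seeing the data, 0 members and 1 translation factor were called higher, and RPL12-A, RPL11 and IF1 turned to -0.078, -0.011 and -0.056. Neither setting divides the libraries by the factor described above. The share of higher among all calls was 45.8% as reported, 19.8% with the TPM as deposited and 31.6% without a factor, and the deposited TPM moved the median over all tested genes from 0.03 to -0.18. The number of all genes called was 1366 as reported, 580 with the TPM as deposited and 738 without a factor.

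Without a limit on level 4 members and 5 translation factors were called higher, with a limit of 1 it was 7 and 4, and all genes called numbered 2163 and 2343. With the limit of 5 on the deposited scale, 32 members were tested and 9 called, of all genes 347 were called, and the translation factors gave 0 higher and 1 lower because most were no longer tested; RPL12-A turned to -0.039. Median-of-ratios scaling, pseudocounts of 0.1 and 5, no variance trend and rescaling without the 10 highest genes gave 9, 10, 10, 8 and 12 members called, all higher. Without the 10 highest genes in the denominator, the members' share was 1.22-fold as high at LL36 as at LL24 (0.489 percentage points of a larger share) instead of 1.11-fold (0.0457 percentage points). The cause of these shifts was not tested.

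Leaving out each library in turn gave 4 to 7 members, 1 to 2 translation factors and 0 to 1 of the genes outside the list called higher. All genes called then numbered 1004 to 1200. Over these fits the difference ran from -0.060 to 0.060 for RPL12-A, from -0.023 to 0.16 for RPL11, from -0.040 to 0.17 for PSRP5 and from -0.050 to 0.092 for IF1, and its lowest value was -0.016 for RPL9 (without LL24 replicate 2), -0.011 for RPS6 (without LL36 replicate 3) and -0.0042 for RPS21 (without LL36 replicate 2). With the replicate block 5 members were called higher, and all genes called numbered 1057. Libraries with the same replicate number showed no sign of pairing: their deviations correlated at -0.04, -0.04 and -0.10 across genes. With 3 libraries per time point this cannot settle whether they were grown or handled together. Depth could not be had from TPM, so what depth limits cannot be stated.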
